A study of Mus musculus with 24 samples.

Results

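Milk secretion at lactation day 14 in BL/6 NZB mice was described by comparing glands taken on that day with glands of non-lactating BL/6 NZB mice. The comparison holds 6 of the 24 samples of the series, chosen by genotype and stage in the sample labels, with 3 mice in each of the 8 groups of the series. The measured tissue was the inguinal mammary gland, frozen quickly after it was taken, from which polyadenylated RNA was sequenced. The series sets BL/6 C57 beside BL/6 NZB mice, non-lactating or at lactation day 8, 14 or 21. BL/6 NZB is a name used for mice with a C57BL/6 nuclear genome and the mitochondrial genome of the NZB strain, but the labels give only the name. They state no treatment, no transgene, no age and no litter size, and they do not say whether the non-lactating mice had ever been pregnant. The mice of a group are separate animals, so the errors below hold the spread between mice together with any difference in dissection.

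The lactating gland is built from alveoli, in which luminal secretory cells make milk and contractile myoepithelial cells squeeze it out under oxytocin. Prolactin acts through its receptor, the kinase Jak2 and the transcription factor Stat5 to switch on the casein and whey protein genes, while fat leaves the cell as globules wrapped in membrane and lactose is made in the Golgi. Around the alveoli lie fat cells, fibroblasts and vessels, and in rodents the inguinal gland can also hold a lymph node and touches muscle.

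In units of 1000000 reads, depth per mouse was 20.57 to 23.33 on day 14 and 9.92 to 13.45 in the non-lactating group. The 6 libraries were not alike within their groups. Summed B cell markers were 53.8, 1116 and 2444 CPM (counts per 1000000) in non-lactating mice 1, 2 and 3, and skeletal muscle markers were 80.2, 20.8 and 649.4 CPM in the same order. Among day 14 mice, mouse 1 had the highest B cell sum (258.1, 67.2 and 33.5 CPM). Results that rest on non-lactating mice 2 and 3 are given with and without them. In whole tissue, fewer cells of a type and less RNA per cell cannot be told apart. Values for 3 mice are given below in the order mouse 1, 2 and 3 of the group, and CPM is not corrected for transcript length.

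Milk protein transcripts took most of the day 14 libraries. The 19 genes of the milk protein list held 74.73, 73.49 and 68.21% of all counts on day 14 (72.14% ± 3.46, SD, n = 3) and 1.98, 0.99 and 1.47% in non-lactating glands (1.48% ± 0.49, n = 3). Every day 14 mouse lay far above every non-lactating mouse, and the difference of 70.66 percentage points had a 2-sided exact permutation p of 0.1, the smallest that 3 against 3 mice allow. Since a fixed number of reads is shared out among all genes, this share lowers every other gene's CPM. Fold changes are therefore log2 differences of log2(CPM + 1) on a non-milk scale, where the 19 genes were left out and the rest brought back to 1000000, and on the deposited scale for the milk protein genes themselves. The pseudocount of 1 CPM makes folds of low genes smaller than they are.

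The caseins, which form the curd and carry calcium phosphate, led the list. Csn2, the beta casein gene, stood at 265914, 253010 and 245035 CPM on day 14 and at 6867, 3056 and 5046 CPM in non-lactating glands. Its groups did not overlap, and it rose by 5.75 (SE 0.72, limma adjusted p = 0.00019). Csn1s1 was at 175140, 161549 and 153487 CPM against 3806, 1856 and 2752 CPM, a rise of 5.92 (SE 0.62). Csn1s2a rose by 5.93 (SE 0.51), Csn1s2b by 5.88 (SE 0.38) and Csn3, the kappa casein that keeps casein micelles in suspension, by 5.92 (SE 0.45). The caseins lie together on chromosome 5 (GRCm38, GENCODE vM21), from the start of Csn1s1 at 87666208 to the end of Csn3 at 87932665. Wap, the whey acidic protein gene at chromosome 11, 6635482 to 6638637, was at 75504, 108734 and 84677 CPM against 2539, 1030 and 1834 CPM and rose by 5.71 (SE 0.57).

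The casein promoters are shown because these genes rose together and Stat5 is known to bind near their starts. The 250 bases before the RefSeq start (GRCm38.p6, strand of the gene, 5′ to 3′) are given for 3 caseins and Wap, with each match to TTCNNNGAA, the palindrome that Stat5 binds, in capitals.
Csn1s1, chr5:87665958-87666207, plus strand: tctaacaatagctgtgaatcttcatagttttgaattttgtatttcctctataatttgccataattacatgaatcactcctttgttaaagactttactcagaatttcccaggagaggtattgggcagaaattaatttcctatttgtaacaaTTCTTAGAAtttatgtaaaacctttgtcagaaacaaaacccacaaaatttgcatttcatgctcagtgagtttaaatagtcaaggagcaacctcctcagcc
Csn2, chr5:87699426-87699675, minus strand: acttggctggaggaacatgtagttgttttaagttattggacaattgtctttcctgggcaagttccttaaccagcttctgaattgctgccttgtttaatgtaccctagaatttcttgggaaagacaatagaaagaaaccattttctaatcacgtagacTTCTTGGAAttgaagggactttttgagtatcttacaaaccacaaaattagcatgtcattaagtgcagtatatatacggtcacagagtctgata
Csn1s2a, chr5:87774200-87774449, plus strand: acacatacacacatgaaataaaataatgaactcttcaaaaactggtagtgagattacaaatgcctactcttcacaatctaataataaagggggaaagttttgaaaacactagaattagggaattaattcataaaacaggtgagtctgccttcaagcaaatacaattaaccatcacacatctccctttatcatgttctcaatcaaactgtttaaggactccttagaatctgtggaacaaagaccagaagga
Wap, chr11:6638650-6638899, minus strand: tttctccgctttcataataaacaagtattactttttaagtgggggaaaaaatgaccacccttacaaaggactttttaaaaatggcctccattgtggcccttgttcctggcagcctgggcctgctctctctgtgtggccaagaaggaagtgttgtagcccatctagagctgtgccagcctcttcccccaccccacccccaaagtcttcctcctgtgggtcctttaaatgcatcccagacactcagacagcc
Csn1s1 had 1 match whose first base lies at -100 from the start, and Csn2 had 1 at -93. No match lay in the window of Csn1s2a or of Wap, which says only that these letters are not in the windows. The motif reads the same on both strands, so 1 search covers both. Over the milk protein genes in the table, 3 of 16 (18.8%) had a match, Glycam1 with its match at -145 being the third, beside 8.13% of all 27025 genes in it (7.02% of 32851 starts). A match is a run of letters and not a measured binding site.

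Whey and defence proteins of milk followed the caseins. Lalba, the subunit that turns B4galt1 into lactose synthase, was at 1096, 1049 and 1111 CPM on day 14 and 34.0, 13.5 and 21.7 CPM in non-lactating glands, a rise of 5.59 (SE 0.32). Cel, a lipase that digests milk fat in the pup, rose by 5.90 (SE 0.37), Lao1, an L-amino acid oxidase, by 5.73 (SE 0.32) and Wfdc18 by 5.50 (SE 0.34). Prol1 rose by 6.10 (SE 0.67), with 451.2, 89.6 and 396.8 CPM on day 14 against 6.58, 1.74 and 1.41 CPM. The iron carrier Trf rose by 4.61 (SE 0.48), Glycam1 by 3.69 (SE 0.55) and Mfge8, a globule coat protein, by 3.42 (SE 0.25). Of 18 tested members 16 rose and 1 fell (median 5.65), beside 3.3% of 14825 genes higher and 88.2% lower on this scale. The member that fell was the acute phase gene Saa3 (-1.47, SE 0.37), Spp1 did not pass (1.33, adjusted p = 0.081), and Slpi was too low to be tested.

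**Figure D1:**
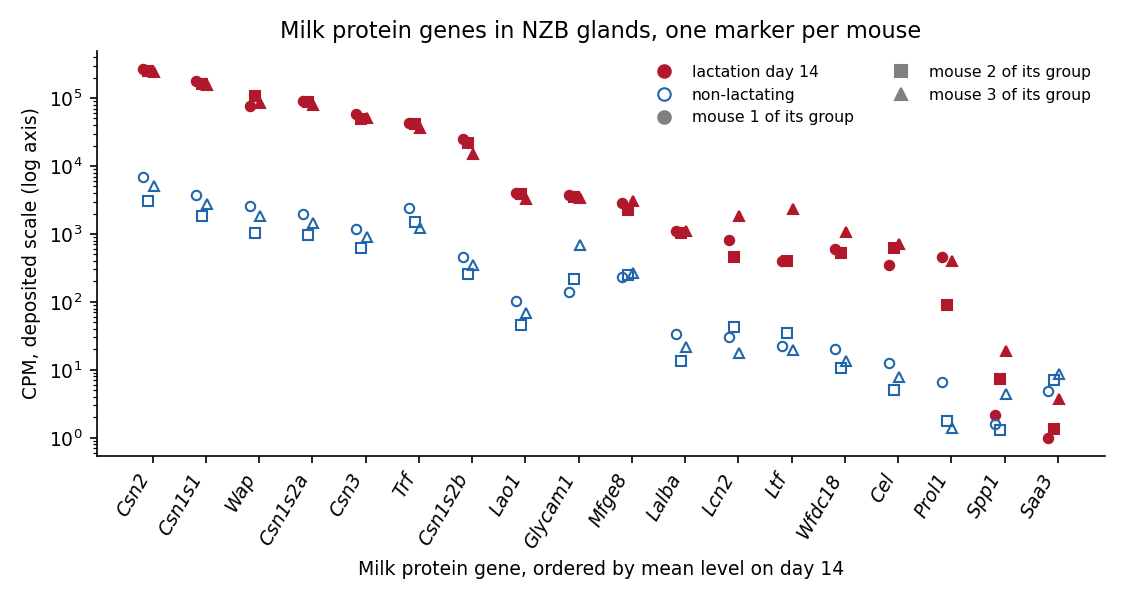
CPM on the deposited scale (vertical log axis) of the 18 tested milk protein genes (horizontal axis, ordered by day 14 CPM); filled points are day 14 mice, open points are non-lactating mice and the shape gives the mouse. The casein points of non-lactating mice keep 1 order, mouse 1 above 3 above 2, and Saa3 is the gene with day 14 below non-lactating.

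Milk protein transcripts were also present in the non-lactating libraries. As a percentage of the day 14 mean, the non-lactating mean was 1.72 for Csn1s1, 1.96 for Csn2, 1.70 for Csn3, 2.01 for Wap, 2.13 for Lalba and 1.51 for Cel. Other members stood higher, with 4.26% for Trf, 9.25% for Mfge8, 9.73% for Glycam1 and 25.9% for Spp1, and Saa3 was at 345%. In each of the 6 former genes non-lactating mouse 1 was highest and mouse 2 lowest, for example 2.70, 1.20 and 1.98% for Csn2 and 2.83, 1.15 and 2.05% for Wap. That order was found in 10 of the 19 milk protein genes (52.6%) and in 2.59% of the 14807 genes tested on the non-milk scale. The order was read from milk protein genes that are part of this count, so the count is no test of it. Of the 15 genes with the largest rises on the non-milk scale 8 (53.3%) had the same order of mice. Among all 1821 genes higher on day 14 on that scale, 72 (3.95%) had it. Whether these reads came from the non-lactating glands themselves was not tested.

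Outside the milk protein genes, 14807 genes were tested on the non-milk scale, of which 1821 (12.3%) were higher and 3125 (21.1%) lower on day 14 (median of all genes -0.34). Without non-lactating mouse 2 the counts were 1300 and 1198 of 12689 genes tested. Fewer genes could be tested there, since the filter still asked for 3 mice above 1 CPM. Of the 4946 calls made with all mice, 4036 were tested without mouse 2. Without mice 2 and 3 together, which leaves 1 non-lactating mouse, the median of all genes was 0.07. The deposited scale gave 489 higher genes (3.3%), 13081 lower genes (88.2%) and a median change of -1.81. There, 508 of the 1821 genes higher on the non-milk scale were lower. With each sample centred on its median gene, 2692 were higher and 1949 lower. Directions of gene groups below are relative to non-milk transcripts, and the deposited counts stand beside each group whose direction turns. Each count of risen or fallen members on the non-milk scale is to be read beside the 12.3 and 21.1% of all genes.

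The milk fat globule genes rose most as a group. Btn1a1, the butyrophilin that ties the membrane to the fat droplet, was at 8376, 7132 and 6308 CPM on day 14 and at 58.3, 40.2 and 42.3 CPM in non-lactating glands, a rise of 7.25 (SE 0.24, adjusted p = 7e-06). Xdh, its partner in the globule coat, rose by 4.37 (SE 0.31) and the droplet protein Plin2 by 3.18 (SE 0.35). The membrane mucins Muc15 (6.63, SE 0.20) and Muc1 (6.50, SE 0.18) rose too, as did Cidea (6.13, SE 0.31), which helps droplets fuse. Fabp3, a fatty acid carrier, was at 3233, 4110 and 2187 CPM against 25, 12.1 and 21.4 CPM and rose by 7.29 (SE 0.33). In all, 7 of 10 tested members rose and 0 fell (median 5.25), and 7 rose and 2 fell on the deposited scale. Cd36 (0.45), Plin3 (0.63) and Muc4 (2.51) did not pass, and Muc4 was at 2.04, 10.3 and 84.3 CPM in the 3 day 14 mice.

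With no mouse left out, more genes of fat synthesis rose than fell on the non-milk scale. Olah, the thioesterase that ends fatty acid chains early and so gives milk its medium-length acids, was at 1026, 1254 and 657.7 CPM on day 14 against 9.71, 6.16 and 11.5 CPM and rose by 6.59 (SE 0.31). The desaturases Fads2 (4.10, SE 0.27) and Fads1 (3.52, SE 0.34) and the elongase Elovl5 (4.02, SE 0.33) rose, with Elovl1 (2.37) and Acacb (2.22). The carbohydrate-responsive factor Mlxipl fell by 3.45 (SE 0.35) and Elovl6 fell by 2.03 (SE 0.37). The abundant Scd1 and Fasn did not pass: Scd1 was at 11176, 15810 and 12600 CPM against 61664, 45969 and 19463 CPM (-1.54, adjusted p = 0.13), and Fasn differed by -0.56 with overlapping groups. Of 18 tested members 6 rose and 2 fell (median 0.61), beside 12.3% of all genes higher and 21.1% lower. On the deposited scale 5 rose and 11 fell (median -1.22). Without non-lactating mouse 3 the falls numbered 6, and without mice 2 and 3 together 5. Without non-lactating mouse 1 the rises numbered 9.

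Triglyceride assembly genes changed in both directions. Lipin 1, encoded by Lpin1, rose by 2.45 (SE 0.42), the fatty acid transporter Slc27a3 by 2.99 (SE 0.35) and the acyl-CoA synthetase Acsl4 by 2.31 (SE 0.26). Dgat2, which adds the last acyl chain, was at 22.1, 16.4 and 61.5 CPM on day 14 and at 1120, 864.7 and 356.6 CPM in non-lactating glands, and fell by 4.58 (SE 0.56). Agpat2 (-3.23), Gpam (-1.40) and Dgat1 (-1.20) fell as well, so that 7 of 16 members rose and 4 fell (2 rose and 9 fell on the deposited scale). The share that fell was near the 21.1% of all genes, while 12.3% of all genes rose. The number of falls was 2 without day 14 mouse 2 or non-lactating mouse 2 and 7 without non-lactating mouse 3. Dgat2, Agpat2 and Gpam are also abundant in fat cells, whose markers fell, and the part of fat cells in these falls was not tested.

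For cholesterol synthesis and uptake, 13 of 25 tested genes rose and 0 fell (median 0.95), but on the deposited scale 2 rose and 15 fell. Hsd17b7, an enzyme late in the pathway, was at 143.1, 156.7 and 85.2 CPM against 15, 14.4 and 13.7 CPM and rose by 3.03 (SE 0.26). Sqle and Fdps rose by 2.29 each and Cyp51 by 2.0. In 19 of the 25 genes day 14 mouse 1 was the highest of its group, beside 40.9% of all genes.

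Lactose is made from glucose and UDP-galactose, and the genes for its last steps rose. B4galt1, which encodes the catalytic part of lactose synthase, was at 4517, 3998 and 1856 CPM on day 14 and 142.3, 145.2 and 156.3 CPM in non-lactating glands, a rise of 4.44 (SE 0.35). The sodium-glucose transporter gene Slc5a1 rose by 5.33 (SE 0.24), the glucose transporter gene Slc2a1 by 3.11 (SE 0.33), and Slc35a2, which carries UDP-galactose into the Golgi, by 1.49 (SE 0.26), although Slc35a2 stood at -0.25 on the deposited scale. The insulin-sensitive transporter gene Slc2a4, characteristic of fat and muscle, fell by 3.35 (SE 0.50), and Pgm2 fell by 1.74 (SE 0.31). Of 16 members 7 rose and 2 fell, against 3 and 10 on the deposited scale.

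Calcium enters milk through the Golgi and across the apical membrane. Atp2b2, the apical calcium pump of the secretory cell, was at 1487, 2404 and 566.3 CPM on day 14 and at 17.8, 10.1 and 16.6 CPM in non-lactating glands, and rose by 6.36 (SE 0.50). The Golgi pump genes Atp2c2 (6.16, SE 0.25) and Atp2c1 (2.81, SE 0.25) rose, as did the entry channel gene Orai1 (3.18, SE 0.29), its sensor Stim2 (1.85, SE 0.27) and Pthlh (5.04, SE 0.43), the hormone that draws calcium from bone. The other pump Atp2b4 (-1.95, SE 0.23) and sensor Stim1 (-1.83, SE 0.20) fell. Atp2a2 (0.53), Atp2b1 (-0.39) and Orai3 (-0.09) did not pass. Orai2 (-1.94) and Atp2a3 (-1.95) did not pass either, and both were highest in non-lactating mouse 3, at 122.5 and 252.8 CPM. Of the 13 members 6 rose and 2 fell, and on the deposited scale 5 rose and 7 fell. Without non-lactating mouse 1, 4 fell.

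Carriers of phosphate, zinc, copper and iron rose in 11 of 18 tested genes and fell in 0 (median 1.96; 6 and 5 on the deposited scale). Slc34a2, the sodium-phosphate carrier, was at 6993, 6170 and 3265 CPM against 43.8, 22.1 and 37.0 CPM and rose by 7.26 (SE 0.37). The metal importer Slc39a8 rose by 6.52 (SE 0.20), the zinc exporter Slc30a2, which loads zinc into milk, by 5.18 (SE 0.29), the copper pump Atp7b by 3.97 (SE 0.33) and the transferrin receptor gene Tfrc by 2.45 (SE 0.27). The metallothionein genes Mt1 (2.78) and Mt2 (3.22) rose, and both were highest in day 14 mouse 3, Mt2 at 72.4, 40.0 and 274.1 CPM. The nucleoside carrier Slc28a3 rose by 6.82 (SE 0.29). In the water and small solute list 6 of 18 genes rose and 6 fell (3 and 13 on the deposited scale). The folate receptor gene Folr1 (6.79, SE 0.23), the vitamin and drug pump Abcg2 (4.08, SE 0.22) and the peptide carrier Slc15a2 (3.59, SE 0.24) rose. The water channel Aqp5 (-3.53) and the folate carrier Slc19a1 (-2.87) fell. The falls in this list numbered 1 without non-lactating mouse 1 or 2, 3 without non-lactating mouse 3 and 4 without any 1 day 14 mouse.

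Amino acid carriers changed in both directions, with 6 of 17 rising and 4 falling (3 and 9 on the deposited scale). Of all genes 12.3% rose and 21.1% fell on the non-milk scale, so the share of carriers that fell was near that of all genes. The falls numbered 2 without non-lactating mouse 2 or without mice 2 and 3. Slc7a5, the large neutral amino acid exchanger, was at 730.7, 870.1 and 667.2 CPM against 9.56, 12.5 and 28.3 CPM and rose by 5.54 (SE 0.37). Its partner chain Slc3a2 rose by 2.22, Slc1a4 by 4.61, Slc7a4 by 4.04 and Slc38a2 by 2.47. The glutamine carrier Slc1a5 went the other way, with 47.1, 45.8 and 60.1 CPM on day 14 and 1406, 1071 and 634.1 CPM in non-lactating glands, a fall of 4.26 (SE 0.31 in log2 units). Slc43a1 fell by 3.23 (SE 0.38), and Slc38a4 (-1.83) and Slc36a1 (-0.75) fell as well.

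The gene with the largest rise on the non-milk scale was Pigr, the receptor that carries immunoglobulin A across the epithelium into milk. It was at 4648, 3589 and 3903 CPM on day 14 and at 26.9, 13.0 and 21.9 CPM in non-lactating glands, a rise of 7.60 (SE 0.28, adjusted p = 9.6e-06). Ccl28, the chemokine that draws antibody-secreting cells, rose by 6.39 (SE 0.27), and the plasma cell genes Jchain by 4.26 (SE 0.39) and Derl3 by 3.37 (SE 0.34). Of 10 tested genes of the plasma cell list 5 rose and 2 fell (4 and 4 on the deposited scale), and the rises include Pigr and Ccl28, which epithelium makes, and Xbp1, which both cell types use. Mzb1 (0.77), Prdm1 (0.37) and Sdc1 (-0.37), also plasma cell markers, did not pass. The falls were Fcgrt (-2.62) and Irf4 (-2.56), and Irf4 was at 112.2, 197.7 and 145.4 CPM in the non-lactating mice. The antimicrobial peroxidase Lpo (6.81, SE 0.36), Ceacam10 (6.73, SE 0.29) and Wfdc3 (6.46, SE 0.24) were the other defence genes among the 15 largest rises.

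In the prolactin and Stat5 list, factors of secretory differentiation had the largest rises. Elf5, the factor that directs secretory differentiation, was at 1269, 1153 and 929.3 CPM against 21.3, 29.2 and 20.9 CPM and rose by 5.50 (SE 0.22), and Ehf rose by 5.49 (SE 0.28). Erbb4 (2.02), Nrg1 (2.19), Nfib (2.01), Akt1 (1.78) and Gata3 (1.47) rose, and Stat5a (0.87) and Stat5b (0.84) rose by less; on the deposited scale Stat5a, Stat5b, Gata3 and Akt1 turned to -0.94, -0.98, -0.34 and -0.04. The prolactin receptor gene Prlr did not pass: it was at 360.4, 337.8 and 330.4 CPM on day 14 and at 225.6, 667.3 and 90.9 CPM in non-lactating glands (0.51, adjusted p = 0.54). The Stat5 targets Cish (0.54) and Socs2 (0.40) and the kinase Jak2 (0.15) did not pass, and Socs1 fell by 1.84. In all, 9 of 18 members rose and 1 fell, against 2 and 10 on the deposited scale.

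Genes of hormone-sensing cells fell in part. Pgr, the progesterone receptor gene, was at 6.19, 5.59 and 7.80 CPM on day 14 and 52.6, 155.4 and 11.9 CPM in non-lactating glands, and fell by 2.67 (SE 0.78, adjusted p = 0.032), although the adjusted p was between 0.067 and 0.11 without any 1 day 14 mouse or without non-lactating mouse 2. Ly6d (-2.82), Cxxc5 (-2.19), Cited1 (-2.10), Wnt4 (-1.10) and Greb1 (-1.03) fell too. Areg, the growth factor through which oestrogen acts in the gland, was too low to be tested and had 0 CPM in all day 14 mice. Esr1 did not pass (0.40), and neither did Foxa1 (-1.56). Of 11 tested members 6 fell and 0 rose, and 2 fell without day 14 mouse 2 or 3 or without non-lactating mouse 2, and 3 without day 14 mouse 1 or without non-lactating mice 2 and 3.

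Growth factor genes of the Igf family also fell in part. Igfbp4, which holds Igf1 away from its receptor, fell by 3.08 (SE 0.23), and the growth hormone receptor gene Ghr (-2.77) and Igf1r (-1.58) fell as well. Igf2r (2.03) and Igfbp2 (2.03) rose, so that 2 of 14 members rose and 5 fell, beside 12.3% of all genes higher and 21.1% lower.

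Markers of both epithelial layers rose. Summed luminal secretory markers were 4165, 3856 and 5082 CPM on day 14 and 259.4, 567.9 and 145.9 CPM in non-lactating glands. Epcam, an adhesion molecule of epithelia, rose by 4.05 (SE 0.54), and Krt8 rose by 2.67, while Krt18 (1.78) and Cldn4 (0.93) did not pass. Krt19 (-0.09), Krt7 (-0.78), Aldh1a3 (-0.82) and Kit (-1.61), the last known from luminal progenitors and mast cells, did not pass either, and Krt7, Aldh1a3 and Kit fell on the deposited scale. Of 16 members 10 rose and 0 fell (median 2.86; 6 and 3 on the deposited scale). Summed myoepithelial markers were 1918, 2165 and 2059 CPM against 381.8, 504.5 and 234.2 CPM, with 12 of 15 genes higher and 0 lower (5 and 2 on the deposited scale). Sox10 rose by 4.78 (SE 0.43), the contractile genes Cnn1 by 3.80 and Acta2 by 2.93, the keratins Krt14 by 3.14 and Krt5 by 2.80 and the oxytocin receptor gene Oxtr by 1.62, which stood at -0.18 on the deposited scale.

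Junction genes followed the epithelium. The connexins Gjb1 (5.97, SE 0.29) and Gjb2 (5.81, SE 0.33) and the claudins Cldn8 (5.34, SE 0.42), Cldn7 (3.21) and Cldn3 (2.96) rose. Gjb2 was at 105.5, 116.1 and 227.9 CPM on day 14 and Cldn8 at 267.4, 255.4 and 112.0 CPM, so mouse 3 was the highest in the former and the lowest in the latter. Gja1 (-1.93), the connexin of myoepithelial and stromal cells, and the endothelial claudin gene Cldn5 (-2.01) fell. In all, 10 of 14 members rose and 2 fell.

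**Figure D2:**
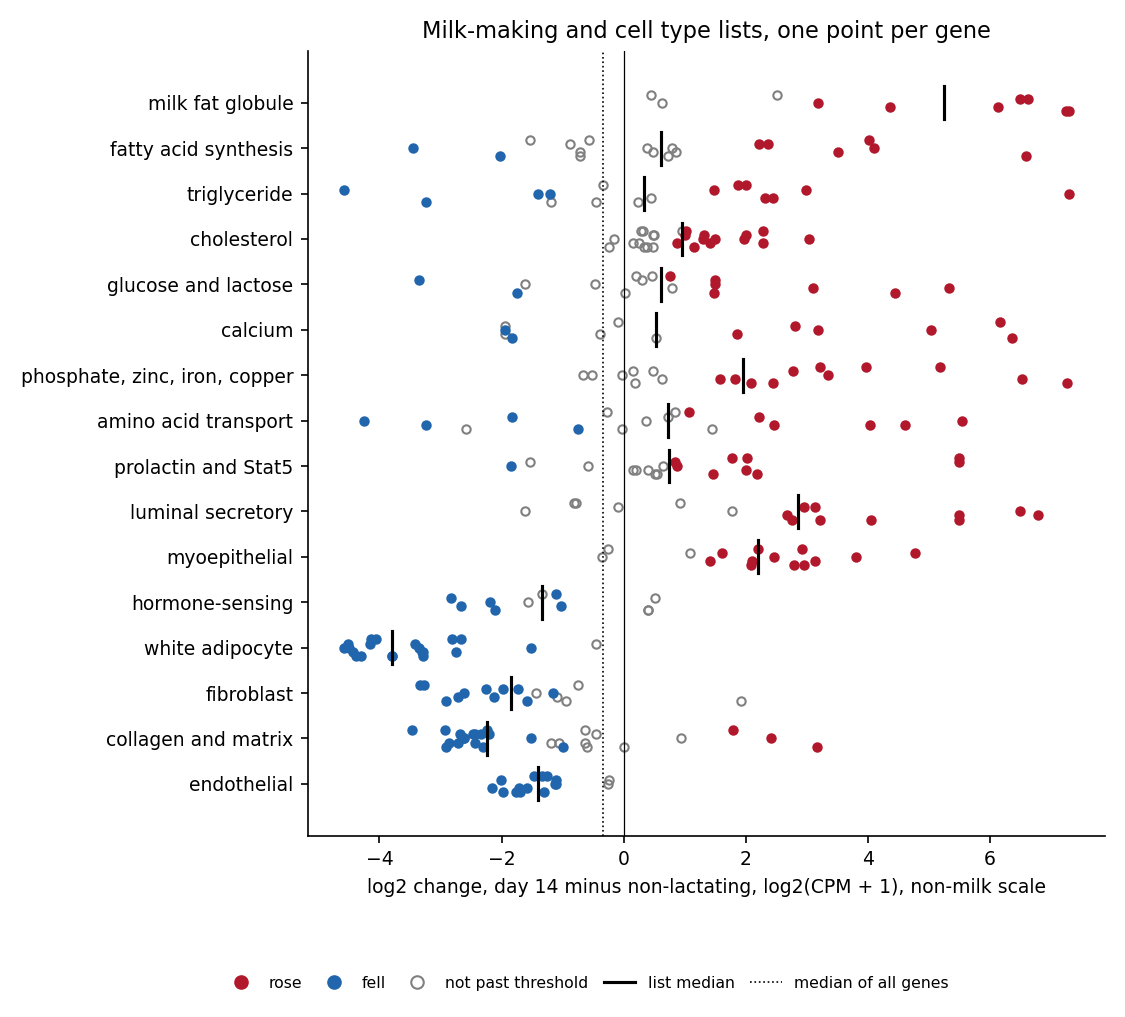
Log2 change from non-lactating to day 14 on the non-milk scale (horizontal axis) for each tested gene of 16 gene lists (vertical axis); red and blue points passed the limma threshold, open points did not, black bars are list medians and the dotted line is the median of all genes (-0.34). The milk fat globule median lies at 5.25 and the white adipocyte median at -3.79.

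Fat cell markers had the lowest median of the lists tested. Summed white adipocyte markers were 4832, 4664 and 4036 CPM on day 14 and 33163, 26135 and 11915 CPM in non-lactating glands. Of 21 genes 20 fell and 0 rose (median -3.79, and -5.51 on the deposited scale). Plin1, the coat protein of fat cell droplets, was at 31.6, 34.1 and 53.9 CPM against 1324, 1057 and 515.2 CPM. The beta-3 adrenergic receptor gene Adrb3 (-4.51, SE 0.43), the natriuretic peptide clearance receptor gene Npr3 (-4.43), the activin-type receptor gene Acvr1c (-4.39) and the adipokine gene Adipoq (-3.79) fell. The leptin gene Lep (-2.75) and the lipase gene Pnpla2 (-1.51) fell too, whereas lipoprotein lipase (Lpl), which secretory cells also make, did not pass (-0.46) with 3535, 2888 and 1912 CPM on day 14.

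Others among the 15 largest falls are known from fat tissue as well. Nat8l (-4.53), Nnat (-4.51), Slc36a2 (-4.41), the lactate receptor gene Hcar1 (-4.35) and Fgf10 (-4.42) fell in all day 14 mice relative to all non-lactating mice. Nrxn3 fell by 4.97 (SE 0.63), from 67.3, 185.9 and 27.5 CPM to 1.87, 0.58 and 1.60 CPM. Mup14 (-5.10) and Mup11 (-4.99) belong to the major urinary protein family, whose near-identical copies share reads, so their values are uncertain. Myl1 (-4.72) was even over the non-lactating mice (59.6, 44.4 and 47.9 CPM), but the muscle myosin gene Myh4 (-4.32, SE 1.08) was highest in non-lactating mouse 3, with 27.2, 3.75 and 162.3 CPM, and did not pass without any 1 of the day 14 mice (adjusted p from 0.053 to 0.07). In the brown adipocyte list 3 of 6 tested genes rose and 2 fell. The rises were Fabp3 and Cidea, which the list shares with milk fat secretion, and Otop1 (3.27, SE 0.32). Ppargc1a (-2.74) and Cox8b (-2.50) fell, Dio2 (-0.75) did not pass, and Ucp1 was too low to be tested.

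Stromal and vessel markers fell in part. Summed fibroblast markers were 1128, 1356 and 1115 CPM on day 14 and 12210, 8948 and 3768 CPM in non-lactating glands, and 11 of 16 genes fell and 0 rose. Col1a1 was at 205.0, 291.3 and 196.1 CPM against 3001, 2080 and 804.2 CPM and fell by 2.91 (SE 0.47). Of 29 collagen and matrix genes 18 fell and 3 rose, the rises being the laminin gene Lama1 (3.17), Col17a1 (2.42) and tenascin C, Tnc (1.80). Of 16 endothelial genes 14 fell and 0 rose, among them Egfl7 (-2.16) and Pecam1 (-1.77), and 8 fell without non-lactating mouse 2 and 9 without day 14 mouse 1. Macrophage sums were 295.6, 228.1 and 293.1 CPM against 477.7, 496.0 and 518.7 CPM, with 4 of 15 genes lower, beside 21.1% of all genes. That count was 1 without day 14 mouse 2 or non-lactating mouse 2, 2 without day 14 mouse 3 and 6 without non-lactating mouse 3.

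Lymphocyte genes followed single mice rather than groups. Pax5, a B cell factor, was at 31.3, 4.34 and 0.76 CPM on day 14 and at 2.16, 163.5 and 368.6 CPM in non-lactating glands (-3.10, adjusted p = 0.20). T cell markers summed to 229.5, 35.9 and 29.2 CPM against 43.1, 476.0 and 2800 CPM. Of 12 tested B cell genes and 14 T cell genes 0 passed in limma, or in limma voom on recovered reads, and 1 of each list was lower at an unadjusted p under 0.05. Yet all 12 and all 14 were lower without non-lactating mouse 1. Without non-lactating mice 2 and 3 the counts were 0 and 0. Of 20 interferon-response genes 9 fell and 0 rose, and 5 fell without non-lactating mice 2 and 3, 4 without day 14 mouse 2 or non-lactating mouse 2 and 14 without non-lactating mouse 1.

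**Figure D3:**
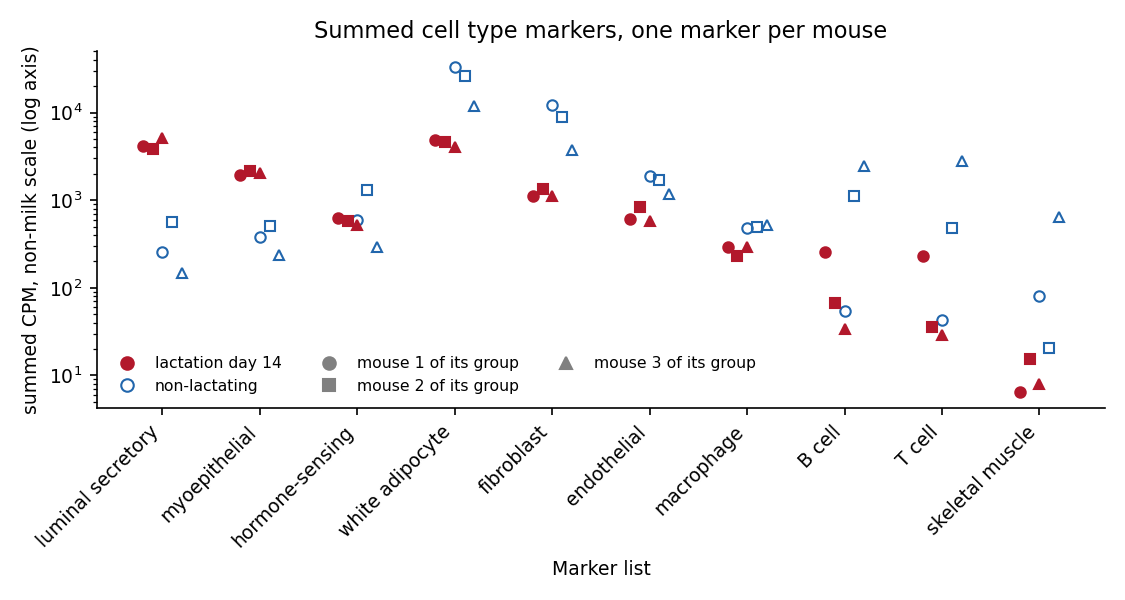
Summed CPM on the non-milk scale (vertical log axis) of 10 cell type marker lists (horizontal axis); filled points are day 14 mice, open points are non-lactating mice and the shape gives the mouse. Luminal and myoepithelial sums are higher and fat, fibroblast and vessel sums lower in all day 14 mice, while B cell, T cell and muscle sums vary between mice of 1 group.

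The series title names organelles, and those of the secretory route came first. Of 38 Golgi and vesicle trafficking genes 23 rose and 0 fell (median 0.96), while on the deposited scale 1 rose and 26 fell, so the rise is relative to other non-milk transcripts. Sec16b, which organises the sites where vesicles leave the endoplasmic reticulum (ER), rose by 2.80 (SE 0.27). The cargo receptor genes Surf4 (2.08, SE 0.21) and Mcfd2 (1.88, SE 0.33) and the transport regulator Rab1a (1.83, SE 0.23) rose. Surf4 was at 461.2, 593.7 and 492.3 CPM on day 14 and 133.6, 131.3 and 99.4 CPM in non-lactating glands.

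Genes of ER folding and the unfolded protein response rose more often than they fell on the non-milk scale. Of 33 tested genes 17 rose and 2 fell (median 0.78), against 2 and 23 on the deposited scale, and 10 rose without non-lactating mouse 2 and 11 without day 14 mouse 1 or 2. The proline isomerase gene Fkbp11 rose by 4.24 (SE 0.34), the disulfide isomerase P4hb by 2.36 (SE 0.25), the secretory factor Xbp1 by 2.47 (SE 0.25) and the chaperone BiP, encoded by Hspa5, by 1.36 (SE 0.19; -0.45 on the deposited scale). P4hb was at 868.6, 984.1 and 751.8 CPM against 195.8, 195.0 and 122.1 CPM. Herpud1, a gene of ER-associated degradation, fell by 0.79 (adjusted p = 0.049), with 20.0, 24.2 and 15.4 CPM against 29.1, 33.0 and 43.2 CPM. Derl1 (-0.81), of the same process, was the other gene that fell, whereas Derl3, given above, rose. At most 1 of these falls remained when any 1 mouse was left out.

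Genes of the integrated stress response rose in 6 of 21 and fell in 0 (median 0.29; 4 and 13 on the deposited scale), and 3 fell without non-lactating mouse 3. Nupr1 rose by 3.52 (SE 0.34), Aldh18a1, for proline synthesis, by 3.02, Chac1 by 2.63, asparagine synthetase, Asns, by 2.50 and Trib3 by 2.46. Atf4 itself rose by 1.38 (SE 0.20), with 253.1, 216.4 and 176.2 CPM against 75.4, 82.7 and 86.3 CPM, but stood at -0.43 on the deposited scale. Ddit3 (-0.19) and Atf3 (0.34) did not pass. Of 18 cytosolic tRNA synthetase genes 11 rose and 1 fell (0 and 14 on the deposited scale), led by Rars (1.92) and Iars (1.71), and Wars (-1.03) was the gene that fell. The count of rises was 5 without day 14 mouse 1 or 2 or non-lactating mouse 2. Cytosolic ribosomal protein genes rose in 7 of 36, and on the deposited scale 0 rose and 36 fell. The count of rises was 0 to 2 without any 1 day 14 mouse, 4 and 1 without non-lactating mouse 1 and 2, 17 without non-lactating mouse 3 and 21 without non-lactating mice 2 and 3.

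Of the 13 mitochondrially encoded genes, which code for subunits of the respiratory chain, 0 passed in limma (median -0.13) or in limma voom, and 1 was lower at an unadjusted p under 0.05. Without non-lactating mouse 3, 2 were lower, and without mice 2 and 3 1 was. All 13 are relative to other non-milk transcripts, and the deposited scale, on which the median gene was at -1.81, had all 13 lower (median -1.92). The mt-Co1 gene was at 25351, 19605 and 21305 CPM on day 14 and 30422, 31313 and 15312 CPM in non-lactating glands (-0.15, SE 0.68), mt-Cytb at 9986, 7848 and 8085 against 11348, 10833 and 6271 CPM (-0.09, SE 0.48), and mt-Nd6 was at -0.72 (adjusted p = 0.067). The other members were mt-Nd1 at 0.19, mt-Nd2 at -0.02, mt-Nd3 at -0.16, mt-Nd4 at -0.27, mt-Nd4l at -0.09, mt-Nd5 at -0.53, mt-Co2 at -0.13, mt-Co3 at 0.09, mt-Atp6 at 0.05 and mt-Atp8 at -0.39. Standard errors of these 13 genes ran up to 0.68. A call needs a change of several standard errors, so shifts well above that size could be missed with 3 mice. Nuclear copies of mitochondrial genes can share these reads, which makes single values uncertain.

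Of the nuclear-encoded respiratory chain genes 1 of 35 was higher and 3 were lower (median -0.21), beside 12.3% of all genes higher and 21.1% lower. Ndufa1 rose by 1.42, though it stood at -0.34 on the deposited scale, and Cycs (-0.78), Sdha (-0.77) and Ndufs1 (-0.70) fell. The falls numbered 0 without day 14 mouse 2 or 3 or non-lactating mouse 1 or 2, 8 without non-lactating mouse 3 and 5 without non-lactating mice 2 and 3. On the deposited scale 0 rose and 34 fell. Of 30 genes of mitochondrial upkeep 2 rose and 5 fell, both smaller shares than those of all genes. Among them were the protease partner Clpx at 2.09 (SE 0.18), the coactivator Ppargc1a at -2.74 (SE 0.34) and the mitophagy receptor Bnip3 at -1.72 (SE 0.34). The falls numbered 3 without non-lactating mouse 2 and 10 without mouse 3.

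Of 24 genes of fatty acid oxidation 14 fell and 2 rose (median -0.97), but the falls numbered 7 and 6 without day 14 mouse 1 and 2, 9 without non-lactating mouse 1 and 4 without mouse 2. Decr1 (-2.48, SE 0.36) and the entry enzyme Cpt1a (-1.89, SE 0.35) fell. The genes that rose were the uncoupling protein genes Ucp3 (3.06, SE 0.39), at 163.0, 413.1 and 357.0 CPM against 44.8, 36.4 and 23.7 CPM, and Ucp2 (1.48, SE 0.37), which stood at -0.34 on the deposited scale. In the TCA cycle and glycolysis 6 of 34 rose and 8 fell (1 and 31 on the deposited scale), with the aldolase gene Aldoc at 5.66 (SE 0.32) and Idh1 at -2.08. These counts are 17.6 and 23.5% of the list, beside 12.3 and 21.1% of all genes, and leaving out 1 mouse gave 3 to 7 rises and 4 to 11 falls. Among antioxidant genes, Prdx4, the peroxiredoxin of the ER, rose by 3.73 (SE 0.22), while Gpx3 (-2.50) and the catalase gene Cat (-1.42) fell. Arg2, the mitochondrial arginase, rose by 4.34 (SE 0.33).

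**Figure D4:**
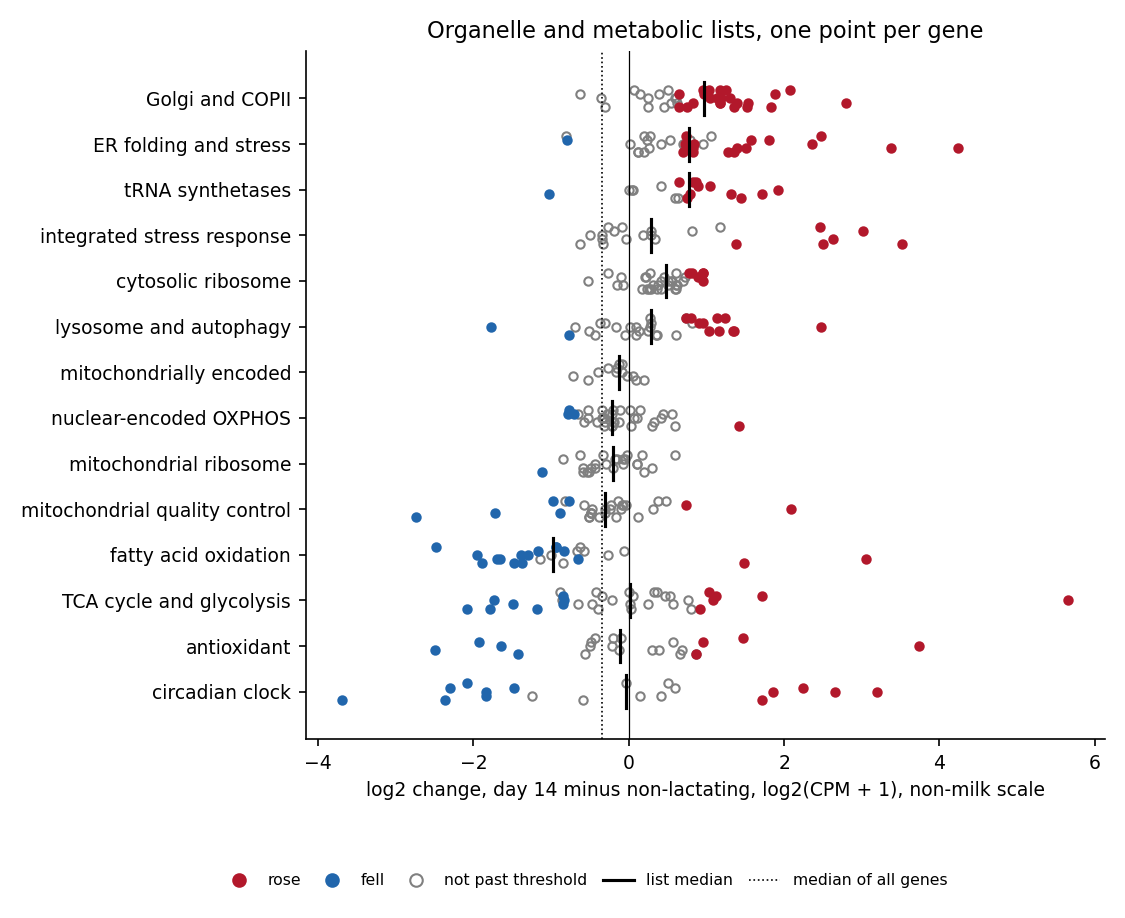
Log2 change from non-lactating to day 14 on the non-milk scale (horizontal axis) for each tested gene of 14 organelle and metabolic lists (vertical axis); red and blue points passed the limma threshold, open points did not, black bars are list medians and the dotted line is the median of all genes (-0.34). Golgi and ER points lie mostly to the right of 0, mitochondrial points around it and fatty acid oxidation points to the left.

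Clock genes changed in both directions. Dbp, an output of the clock, was at 3.22, 3.92 and 4.51 CPM on day 14 and 81.4, 68.9 and 41.8 CPM in non-lactating glands and fell by 3.69 (SE 0.31). Per3 (-2.36), Nr1d1 (-2.30) and Per2 (-2.08) fell, and Npas2 (3.19), Nfil3 (2.66), Rora (2.24) and Arntl (1.72) rose, the last at -0.04 on the deposited scale. Of 19 genes 5 rose and 7 fell (2 and 14 on the deposited scale). The labels give no hour of collection, so hour and stage cannot be told apart.

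The 3 day 14 glands differed among themselves. Day 14 mouse 3 was the highest of its group in 21 of 23 genes of the involution and acute phase list (91.3%), beside 32.0% of all genes tested. The same held for 13 of 16 immediate early genes, 12 of 14 junction genes and 13 of 16 luminal secretory genes. The junction and luminal lists share Cldn3, Cldn4 and Cldn7. Of 33 lysosome and autophagy genes, 21 were highest in this mouse. It was the highest in 0 of 38 Golgi genes and 0 of 13 mitochondrially encoded genes. Igfbp5, a factor known to rise when milk stasis begins, was at 93.5, 139.3 and 2456 CPM on day 14 and at 689.8, 869.6 and 434.7 CPM in non-lactating glands. Cd14 was at 33.7, 46.3 and 669.9 CPM, Lrg1 at 18.2, 17.4 and 277.4 CPM, Socs3 at 2.46, 2.84 and 32.7 CPM and the growth factor gene Tgfb3 at 48.2, 72.8 and 258.9 CPM. The same mouse held the highest Ltf (399.9, 405.2 and 2329 CPM, deposited scale) and Lcn2 (828.3, 454.0 and 1866 CPM). Its milk protein share was the lowest of the 3, and so were its Atp2b2, Slc34a2, Olah and B4galt1, genes picked after their values were seen. Other genes went the other way. This mouse was the highest in 8 of 18 milk protein genes (44.4%), Lalba and Wfdc18 among them. It was also the highest in 9 of 18 carriers of phosphate, zinc, copper and iron (50.0%). It was the highest of its group in 14 of 21 white adipocyte genes (66.7%), although its sum of these genes, in which Lpl was the largest, was the lowest of the 3.

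Several of these genes were above the non-lactating level in all 3 day 14 mice. Of the 23 genes 10 rose and 3 fell (median 0.96; 4 and 10 on the deposited scale). Clu rose by 4.40 (SE 0.61), Cebpd by 4.0 (SE 0.30), Lbp by 3.53 (SE 0.28), Cd14 by 3.14 (SE 1.01), Timp1 by 2.66 (SE 0.37) and Stat3 by 1.27 (SE 0.30), the last at -0.55 on the deposited scale. Hp, which encodes haptoglobin, fell by 4.11 (SE 0.47). Without day 14 mouse 3 the counts were 8 and 6, Cd14 stood at 1.79 (adjusted p = 0.018) and Tgfb3 at 1.58 (adjusted p = 0.044). Both calls were lost without day 14 mouse 2 (adjusted p = 0.066 and 0.059) and without non-lactating mice 2 and 3 together (0.15 and 0.099). Cd14 also missed the threshold without non-lactating mouse 2 (0.076) or 3 (0.069). Orm1, at 1.73 with all mice, did not pass without day 14 mouse 2 or 3 or non-lactating mouse 2 (adjusted p 0.073 to 0.10), nor without non-lactating mouse 3 (0.05 after rounding) or mice 2 and 3 (0.22). Without day 14 mouse 2, and without non-lactating mice 2 and 3 together, 6 of the list rose, and in the latter case 1 fell.

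**Figure D5:**
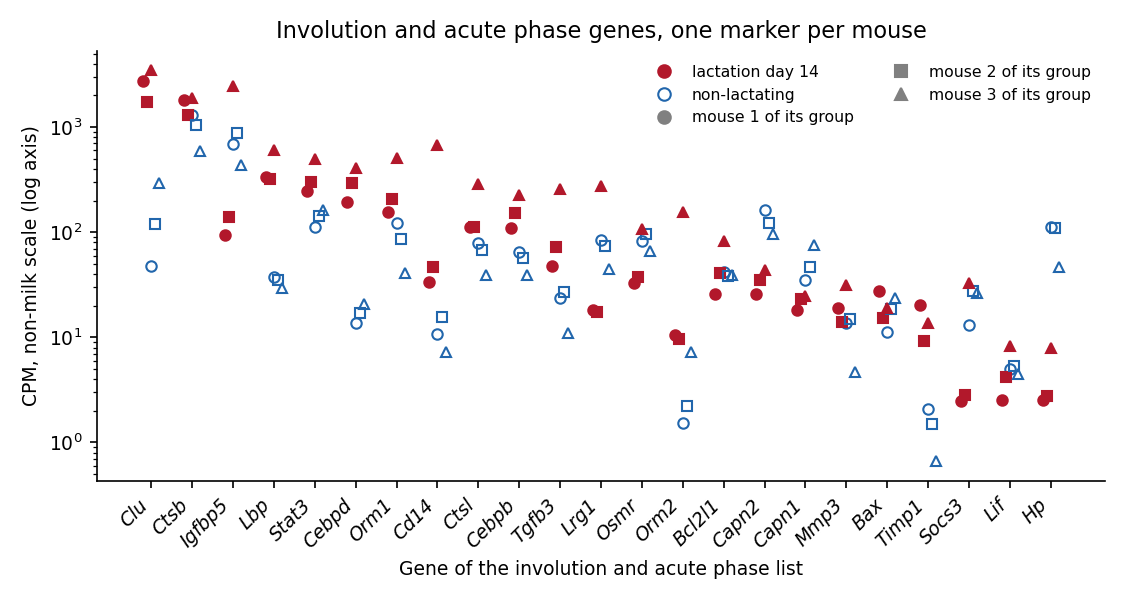
CPM on the non-milk scale (vertical log axis) of the 23 tested genes of the involution and acute phase list (horizontal axis); filled points are day 14 mice, open points are non-lactating mice and the shape gives the mouse. The filled triangle, day 14 mouse 3, is the highest filled point in 21 genes, and in Igfbp5 it is the one filled point above the open ones.

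Lactation day 14 was also compared with day 8 in NZB. The comparison of 3 against 3 mice tested 12090 genes and called 24 (0.199%) higher and 28 (0.232%) lower on day 14, while 1340 and 917 were so at an unadjusted p under 0.05. Sorl1, a sorting receptor, was at 212.9, 198.4 and 278.7 CPM on day 14 and at 52.0, 68.3 and 84.5 CPM on day 8, a rise of 1.75 (SE 0.20, adjusted p = 0.018). The chemokine gene Cxcl1 (2.22), the growth arrest genes Btg2 (1.77) and Trp53inp1 (1.74) and Fos (1.49), Fosl2 (1.33) and Dusp1 (1.30) were higher on day 14. Of 12 tested genes of the immediate early list 1, Fos, was higher and 0 lower. Fos was at 54.9, 50.0 and 68.5 CPM against 21.8, 23.7 and 15 CPM, with no overlap.

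Among the genes lower on day 14, Odc1, the first enzyme of polyamine synthesis, was at 48.4, 77.6 and 41.3 CPM against 139.8, 175.0 and 199.1 CPM on day 8 (-1.64, SE 0.23). The matrix protease gene Adamts5 (-2.84, SE 0.42), the dopamine receptor gene Drd4 (-3.25, SE 0.53), the sialyltransferase gene St3gal4 (-2.04, SE 0.24), the translation factor gene Eif2b3 (-1.64, SE 0.21) and Tmem165 (-1.73, SE 0.27), a Golgi ion carrier needed for lactose and glycan synthesis, were lower. The milk protein share on day 8 was 74.05% ± 1.67 (n = 3), a level that overlapped day 14. No call remained without day 8 mouse 2, and 60 genes were higher and 53 lower without day 14 mouse 2.

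In C57 glands taken at the same stages, 14.2% of 14765 genes rose to day 14 and 26.2% fell. C57 non-lactating mouse 3 carries a genotype tag that goes against its title and was kept with its title. Without this mouse, the test of the NZB and C57 changes given below called 3 genes higher and 0 lower. Of the 3 genes named below, 1 did not pass there. The columns of C57 non-lactating mouse 2 held 2.17 and 11.89 units of 1000000 reads and were averaged with equal weight. The difference between the NZB and the C57 change was tested in 1 model over 12 mice. Of 15735 genes 3 (0.0191%) had a change that was higher in NZB and 0 (0.0%) a lower one in limma. At an unadjusted p under 0.05 there were 914 and 442. The 3 genes, BB114814, 5430419D17Rik and the immunoglobulin segment gene Igkv3-5, belong to no list. BB114814 was at 55.7, 62.3 and 17.7 CPM in C57 non-lactating glands and at most 1.67 CPM in the 6 NZB glands.

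The test was run on the non-milk scale, without the 19 milk protein genes. In the milk fat globule, fatty acid synthesis and ion carrier lists 0 genes passed, and the median differences were 0.26, -0.41 and -0.01. Some of the largest rises are given side by side, chosen after their values were seen. Slc34a2 rose by 7.26 in NZB and 9.77 in C57 (difference -2.51, SE 0.43, adjusted p = 0.13), and its non-lactating levels were 43.8, 22.1 and 37.0 CPM in NZB and 4.21, 6.47 and 6.07 CPM in C57. Olah rose by 6.59 and 8.86, Fabp3 by 7.29 and 9.25 and Pigr by 7.60 and 9.07 in the same order, with day 14 levels of Pigr at 3589 to 4648 CPM in NZB and 3368 to 4439 CPM in C57. Among epithelial markers, Krt14 stood at 3.14 in NZB and 0.12 in C57 (difference 3.02, SE 0.65, adjusted p = 0.20), with 3.00, 7.99 and 1.02 CPM in NZB and 17.5, 41.7 and 17.1 CPM in C57 non-lactating glands. The median difference over 16 luminal genes was 2.43 and over 15 myoepithelial genes 2.01, and 0 of either list passed, while 11 and 13 were higher at an unadjusted p under 0.05. Mitochondrially encoded genes had a median difference of -0.01, with 0 of 13 past the threshold.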

How the data were processed

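The deposited table holds log10(CPM + 1) per gene, made by the authors from reads of 24 glands, 2 columns per mouse. The build GRCm38 (mm10) is named per the submitters' processing notes. The aligner and the counter were not given in the sources used here. The log10 values were undone to CPM, the 2 columns of a mouse were averaged, and 27 symbols turned into dates were left out. These columns differed by at most 0.38% in depth in the 6 mice compared and by 0.45% in 1 day 8 mouse. In C57 non-lactating mouse 2 they held 2.17 and 11.89 units of 1000000 reads. All CPM values came out as whole reads (100% within 0.05). Genes above 1 CPM in at least 3 of the mice compared were tested by limma 3.58.1 (R 4.3.3, trend, 2-sided) on log2(CPM + 1) over the mice compared only, with Benjamini-Hochberg adjustment over all genes tested and a threshold of 0.05. Positions are from GENCODE vM21 and promoters from RefSeq GRCm38.p6. Members and 53 gene lists were chosen with earlier results of these data known. Named genes are the 15 largest rises and falls past the threshold without overlap and with a mean of at least 4 CPM in the higher group, unnamed models left out. For each list they were drawn from the 8 smallest adjusted p, the 4 most abundant and those past the threshold against the sign of the list's median. In lists of up to 12 all members were candidates, and not every candidate is named. Muc4, Cldn8, Gjb2, Igfbp5, Socs3 and Lrg1 values by mouse, and the luminal and plasma cell markers given as not passing, were chosen after they were seen. Replicate numbers share only a number, so no pairing entered the tests. The tests were checked on simulated data with known changes. Count models planned as alternatives were not run. A few results are not reported here.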

Additional observations from a re-analysis of the deposited data

Results flagged for a closer look

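The change from non-lactating to day 14 differed between NZB and C57 in 3 genes (limma interaction over 12 mice, adjusted p = 0.043 for each), which is why they are listed here. For 5430419D17Rik the NZB change exceeded the C57 change by 4.92 (SE 0.69, log2). It was at 38.8, 64.8 and 15.2 CPM in C57 non-lactating glands and at most 1.71 CPM in the 6 NZB glands. For BB114814 the difference was 4.54 (SE 0.62), with at most 1.67 CPM in the NZB glands. For Igkv3-5, an immunoglobulin light chain segment, it was 3.26 (SE 0.41), with 5.77, 11.6 and 14.1 CPM in NZB and 0.15, 0.20 and 0 CPM in C57 day 14 glands. Near-identical segments can share reads with Igkv3-5, so its values are uncertain. None of the 3 passed without any 1 of the C57 day 14 mice.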

How the results depend on the processing

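The non-milk counts of 1821 higher and 3125 lower genes became 489 and 13081 on the deposited scale, 2692 and 1949 with median centring, 2414 and 4810 with all 24 mice in the fit, and 2016 and 1493 without NZB non-lactating mice 2 and 3, where the lone mouse is assumed to vary like the other group. Leaving out 1 mouse gave 1213 to 2243 higher and 1198 to 3181 lower, with the fewest lower without non-lactating mouse 2, 1994 without day 14 mouse 1 and 1887 without day 14 mouse 2. The filter still asked for 3 mice, so fewer genes were tested, from 12689 without non-lactating mouse 2 to 14711 without day 14 mouse 2. With limma voom on recovered reads, added after seeing the data, 1760 were higher and 2697 lower, and 4443 of the 4946 calls were shared. The milk protein share difference was 69.37 to 72.63 points with 1 mouse left out. On the deposited scale these risen genes changed sign: Slc35a2 (-0.25), Ugp2 (-0.31), Stat5a (-0.94), Stat5b (-0.98), Gata3 (-0.34), Akt1 (-0.04), Oxtr (-0.18), Hspa5 (-0.45), Iars (-0.10), Atf4 (-0.43), Ndufa1 (-0.34), Ucp2 (-0.34), Arntl (-0.04), Stat3 (-0.55) and Orm1 (-0.08). The division by all reads, milk included, sets that scale lower by construction.

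For the difference between NZB and C57 (3 higher, 0 lower), the higher count was 7 on the deposited scale, 0 with a pseudocount of 0.25 or 4 CPM, 0 with no filter on low values, 109 with all 24 mice and 10 without NZB non-lactating mice 2 and 3 (lower: 2 deposited, 7 with all 24 mice, 2 without those mice). Leaving out 1 mouse gave 0 to 36 higher, the most without NZB non-lactating mouse 2, and 0 to 6 lower. For day 14 against day 8 (24 higher, 28 lower), no filter gave 0 and 0, all 24 mice 44 higher, and leaving out 1 mouse 0 to 60 higher and 0 to 53 lower. The cause was not tested.

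With the replicate block, the non-milk counts were 1427 and 2207, the genotype difference 0 and 0, and day 14 against day 8 gave 10 and 14. Same-numbered mice did not deviate together (correlations of -0.42, -0.06 and -0.28 between day 14 and non-lactating mice, -0.12, 0.06 and -0.14 between day 14 and day 8), so the numbers are not taken as a pairing. The 3 count models planned on recovered reads (edgeR with 2 scalings, DESeq2) were not run, since the file holds log10 values. The median SD between mice was 0.25 (log2) on day 14 and 0.39 in the non-lactating group. In simulated data with an SD of 0.32 for every gene, 48% of true 2-fold changes and 100% of 4-fold changes were recovered. Genes with a wider spread were not simulated, so a gene that did not pass can still have changed.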

Other observations

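Grip2, a synaptic scaffold gene at chromosome 6, 91761509 to 91827250, took 0.378, 2.08 and 2.47% of all counts on day 14 and 4.22, 1.55 and 1.99% in non-lactating glands. It was chosen after its values were seen. Its change on the non-milk scale was 0.92 (SE 0.97, limma adjusted p = 0.48). The immunoglobulin constant gene Igkc, also chosen after its values were seen, was at 1739, 1459 and 949.4 CPM on day 14 and at 35.2, 124.3 and 285.0 CPM in non-lactating glands (3.62, limma adjusted p = 0.005), while B cell markers summed to 258.1, 67.2 and 33.5 CPM against 53.8, 1116 and 2444 CPM.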
